A study of Mus musculus with 4 samples.

Results

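The genes described here are 32 members of the lysosome gene set other than the cathepsins, out of 31053 genes counted in the matrices. They were taken as a fixed list of names, and all 32 had counts in each of the 4 libraries. By role they comprised 7 proteins of the lysosomal membrane, 10 hydrolases, 2 proteases, 5 activator and lipid transfer proteins, 7 parts of the proton pump and its accessory protein, and 1 transcription factor, Tfeb. Bone marrow cells of femur and tibia, depleted of red cells, were profiled by droplet single-cell RNA sequencing from the 3′ end in a mouse model of myelodysplastic syndrome that progresses with age. DKO mice lack mDia1, an actin-nucleating formin encoded by Diaph1, and miR-146a, a microRNA that restrains inflammatory signaling (mDia1-/-, miR146a-/-, IL6+/+). TKO mice carry those deletions and lack IL-6 as well (mDia1-/-, miR146a-/-, IL6-/-). IL-6 KO mice lack IL-6 alone (mDia1+/+, miR146a+/+, IL6-/-), and TWT mice are wild type at all 3 loci. All groups are labelled C57/B6 and 12 months old. The deletions are those of knockout lines crossed with each other and are carried by the whole animal, not by the marrow alone. The comparisons ask how far the lysosomal genes differ in the DKO marrow, whether such a difference lies in the kinds of cells or within a kind of cell, and what the additional loss of IL-6 goes with.

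Lysosomes are acidic compartments in which proteins, lipids, glycans and nucleic acids taken up by the cell, or sent there by autophagy, are degraded. A proton pump of the vacuolar type acidifies the lumen: its cytosolic V1 head hydrolyses ATP and its membrane-bound V0 part passes the protons. Soluble hydrolases need this acidity, small activator proteins present lipids to some of them, and heavily glycosylated membrane proteins line the inner face. Monocytes, macrophages and dendritic cells are rich in lysosomes. In granulocytes many of the same proteins also enter granules, for example Cd63 in azurophilic granules. Tfeb is a transcription factor that binds the E-box sequence CACGTG in the promoters of many lysosomal genes.

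One library was made per genotype, and the sources used here do not state how many mice went into it. No test between genotypes was therefore possible, no p-value is given, and all 95% intervals are exact and cover counting error only. The deposited counts are unique molecular identifiers (UMIs), each standing for one captured mRNA molecule. The libraries held 8423 to 10866 barcodes and 61292684 to 85145074 UMIs. Barcodes were kept where 500 to 4000 genes were detected and mitochondrial genes took no more than 15% of the UMIs, which left 9627 DKO, 7560 TKO, 7476 IL-6 KO and 6794 TWT cells. Between 19 and 36 barcodes were shared by any pair of libraries, at most 0.399% of the smaller one. Diaph1 had 11.4 CPM (counts per 1e6 UMIs of the cells summed) in DKO and 12.4 in TKO, against 178 in IL-6 KO and 163 in TWT. Il6 had 8.60 CPM in the library labelled TKO and 9.89 in that labelled IL-6 KO, above the 0.235 in DKO and 0.807 in TWT. Where the counted 3′ tags lie relative to the deleted part of Il6 is not known here, so those labels could not be checked by it, and miR-146a itself was not among the counted genes. The IL-6 KO library was the only one with Xist above 1 CPM (799.9 CPM). Sex and genotype therefore cannot be told apart there for any member, the X-linked Lamp2, Gla and Atp6ap1 included. Cells were sorted into 15 classes by marker genes, none of them a member (for example, at least 4 of 6 classical monocyte markers with a UMI). Cells past both the classical and the non-classical monocyte gate formed a class of their own. A cell past the macrophage gate counted as a macrophage whether or not it also passed a monocyte gate. The T cell gate took precedence over NK cells, and the pro/pre-B and plasma cell gates over B cells. The immature neutrophil gate took precedence over mature neutrophils and granulocyte-monocyte progenitors. Cells past any other pair of gates or none were left unassigned. These were 14.4% of DKO, 7.76% of TKO, 7.56% of IL-6 KO and 9.61% of TWT cells. A class name below stands for cells that passed that gate. All classes of a genotype come from 1 library and share its handling and its free RNA.

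The sequences just before the start sites of 4 members are shown because the comparisons turn on them: Lamp1, Lgmn and Cd68 were called higher in the DKO marrow, and Psap was the member with the lowest DKO to TWT ratio in classical monocytes. Each run is the 150 bases before a RefSeq start site in build GRCm38.p6, 5′ to 3′ on the gene's strand, with CACGTG in capitals. Lamp1 lies at chr8:13159011-13159160 on the plus strand, Lgmn at chr12:102439093-102439242 on the minus strand, Psap at chr10:60277478-60277627 on the plus strand and Cd68 at chr11:69666171-69666320 on the minus strand.
Lamp1: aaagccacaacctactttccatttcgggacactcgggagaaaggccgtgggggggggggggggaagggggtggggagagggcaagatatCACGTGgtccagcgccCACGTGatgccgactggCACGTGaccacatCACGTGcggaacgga
Lgmn: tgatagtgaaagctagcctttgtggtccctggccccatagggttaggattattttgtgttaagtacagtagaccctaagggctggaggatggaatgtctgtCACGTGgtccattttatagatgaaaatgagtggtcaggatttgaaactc
Psap: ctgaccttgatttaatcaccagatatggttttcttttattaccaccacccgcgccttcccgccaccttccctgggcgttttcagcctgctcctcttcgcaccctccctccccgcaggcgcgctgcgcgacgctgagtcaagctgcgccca
Cd68: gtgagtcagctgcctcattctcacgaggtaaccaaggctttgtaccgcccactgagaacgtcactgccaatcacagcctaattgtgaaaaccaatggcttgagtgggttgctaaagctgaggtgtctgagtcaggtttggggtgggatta
Lamp1 held 4 copies, whose first bases stood between 61 and 15 bases before the start, and Lgmn held 1 copy at 49 bases before it. The letters CACGTG did not occur in the windows of Psap and Cd68. The Lgmn window shown lies inside the annotated gene. The window of another Lgmn start, farther upstream (102439729 to 102439878), spans the gene's annotated 5′ end and had no copy. The table held 34 windows of 28 members, and 7 windows had the motif, 1 each of Lamp1, Lgmn, Mcoln1, Atp6v1a, Gaa, Glb1 and Naglu, whereas 4.30% of all 32851 windows of this length did. The motif reads the same on both strands. A match describes letters in a window and is not evidence of binding.

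The members' summed level differed between classes far more than between libraries. In TWT the sum over the 32 genes was 17429 CPM in macrophages, 10836 in classical monocytes, 10412 in plasmacytoid dendritic cells and 9780.1 in non-classical monocytes. It was 6736 CPM in basophils and mast cells, 4239.6 in mature neutrophils, 3892 in granulocyte-monocyte progenitors and 2909.8 in immature neutrophils. Lymphocytes stood lower, with 2691 CPM in B cells, 2223 in NK cells and 2183 in T cells, and erythroid cells lowest with 1128. The counting intervals of T and NK cells overlapped. Such a sum weights genes by their UMIs. Psap alone gave 33.4% of the member UMIs of TWT classical monocytes, so sums are also given without it.

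Single members followed other patterns. Cd63, a tetraspanin of lysosomes and granules, had 2539 CPM in TWT basophils and mast cells, 1312 in granulocyte-monocyte progenitors, 575 in immature and 202 in mature neutrophils, but 5.38 in classical monocytes. Atp6v1g1, a subunit of the pump's V1 part, was at its highest in mature neutrophils (751 CPM in TWT, against 324 in TWT classical monocytes). Lgmn, the asparaginyl endopeptidase legumain, had 789 CPM in TWT macrophages, 80.4 in B cells and 70.2 in classical monocytes, and 2.11 or less in mature and immature neutrophils, T cells and erythroid cells. Gla, Mcoln1 and Atp6v0c did not reach 50 CPM in any comparison and were never measured there. Atp6v0c, the proteolipid of the proton channel, had 1.25 to 2.15 CPM over all cells, a value that reads shared with near-identical copies could lower, which was not tested. Glb1 shares exons with Tmppe on the same strand, so its counts are uncertain.

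In the whole filtered marrow the members together were higher in DKO, where more cells of a class and more mRNA per cell cannot be told apart. Their sum was 5425 CPM in DKO cells, 4279.6 in TKO cells, 3913 in IL-6 KO cells and 4085 in TWT cells. The DKO to TWT ratio was 1.33 (1.32 to 1.34), and without Psap it was 1.39. A gene counted as measured where one library or the other reached 50 CPM and the pair held 30 or more UMIs, and it was called when CPM + 1 differed at least 2-fold. Of 21 members measured, 3 were called higher and 0 lower, beside 6.39% of all genes measured called higher and 5.08% called lower. The log2 ratio was above 0 for 19 of the 21, with a median of 0.49, against 0.12 over all genes. The other 11 members stayed under the minimum.

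**Figure D1:**
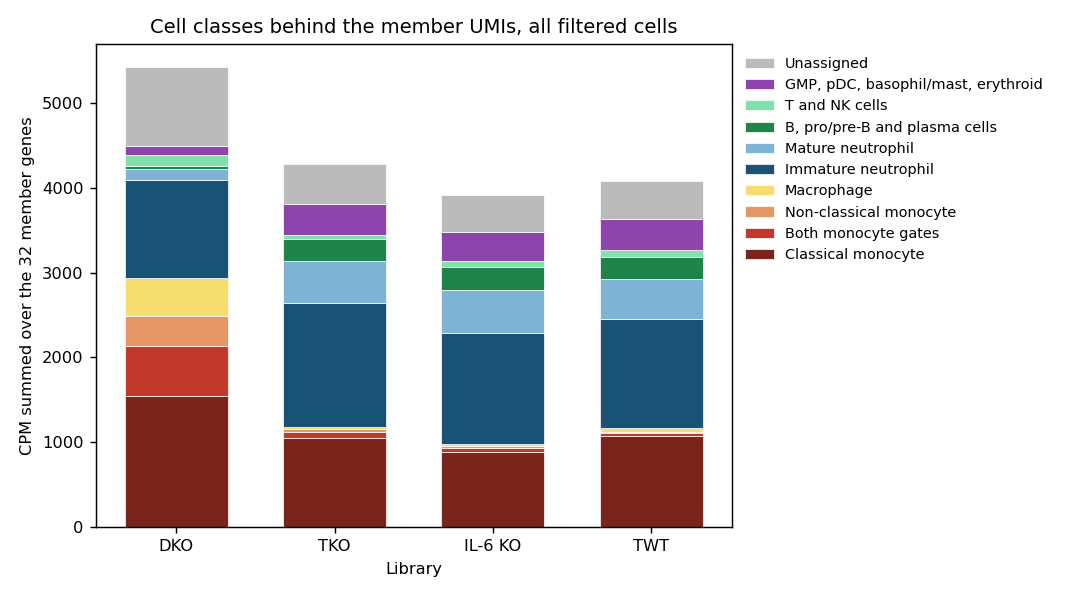
CPM summed over the 32 member genes in all filtered cells of each library (y axis), stacked by the cell class that the UMIs came from. The DKO bar stood at 5425 and the TWT bar at 4085, and the 4 monocyte and macrophage segments at the foot made up 54.0% of the DKO bar and 28.5% of the TWT bar.

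The 3 members called higher were Lgmn, Cd68 and Lamp1. Lgmn (ENSMUSG00000021190, GRCm38 chromosome 12, 102394084 to 102439813, minus strand) had 84.7 CPM in DKO, 19.1 in TKO, 15.7 in IL-6 KO and 23.4 in TWT, a ratio to TWT of 3.63 (3.39 to 3.88). Cd68, a glycoprotein of macrophage lysosomes (chromosome 11, 69664213 to 69666153, minus strand), had 144 CPM in DKO, 51.7 in TKO, 36.2 in IL-6 KO and 43.7 in TWT, a ratio of 3.30 (3.14 to 3.46). Lamp1, a main glycoprotein of the lysosomal membrane (chromosome 8, 13159161 to 13175338, plus strand), had 485 CPM in DKO, 242 in TKO, 223 in IL-6 KO and 231 in TWT. For all 3 the DKO value stood above the other libraries. Those ran from 15.7 to 23.4 CPM for Lgmn, 36.2 to 51.7 for Cd68 and 223 to 242 for Lamp1. Lamp1 was just inside the 2-fold rule with a log2 ratio of 1.07, and it was no longer called when genes above 1% of the UMIs were left out of the total. With a floor of 200 genes as the sole filter on barcodes, Lamp1 was not called either, and Lgmn, Cd68, Asah1 and Gm2a were. Asah1, acid ceramidase, was just outside it with 115 CPM in DKO, 62.6 in TKO, 52.6 in IL-6 KO and 60.6 in TWT. The 2 measured members below 0 were Cd63, with a log2 ratio of -0.08, and the pump head subunit Atp6v1a, with -0.13.

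Against TKO, which differs from DKO in the loss of IL-6, 3 of 21 measured members were called higher in DKO (Lgmn, Cd68 and Gm2a) and 0 lower, beside 5.26% and 5.38% of all genes. Gm2a, the activator protein of GM2 ganglioside breakdown, had 182 CPM in DKO, 75.3 in TKO, 82.8 in IL-6 KO and 99.0 in TWT. Lamp1 reached a log2 ratio of 0.999 against TKO, just under the limit. This comparison shares the DKO library with the one before, so the counts are not independent of each other. Between TKO and TWT 0 of 20 members were called, with 0.887% of all genes called in either direction, and between IL-6 KO and TWT 0 of 17, with 0.453%. The summed levels of TKO and IL-6 KO were 1.05 and 0.958 times that of TWT.

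The marrow libraries differed in their classes of cells. Cells in the monocyte and macrophage gates made up 34.0% of DKO, 9.06% of TKO, 7.78% of IL-6 KO and 8.61% of TWT cells. They gave 54.0% of the member UMIs of DKO, 27.5% of TKO, 24.8% of IL-6 KO and 28.5% of TWT. Mature neutrophils were 5.84% of DKO cells, against 23.1% in TKO, 26.6% in IL-6 KO and 23.6% in TWT. Of the Lgmn UMIs, 77.3% came from monocytes and macrophages in DKO and 41.1% in TWT. For Cd68 this share was 76.8% in DKO and 63.2% in TWT, and for Lamp1 it was 62.3% in DKO and 42.8% in TWT. Cd63 came from other cells: 72.2% of its UMIs in DKO and 73.3% in TWT came from neutrophils.

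When each library's class values were weighted by the class shares of TWT, over 11 gated classes with at least 10 cells in every library and the unassigned cells as a 12th, the sum of the members was 4060.5 CPM in DKO cells, 4353 in TKO cells, 4129 in IL-6 KO cells and 4132 in TWT cells. The DKO to TWT ratio was then 0.983, where it was 1.33 at the libraries' own shares, and 0 members were called. Lgmn stayed nearest to 2-fold, with 40.8 CPM in DKO and 20.6 in TWT (log2 ratio 0.95). It lay under the 50 CPM minimum on this scale, so it could not be called at any ratio. Cd68 had a log2 ratio of 0.64 and Lamp1 of 0.38 on this scale. Psap, with a log2 ratio of 0.11 in the whole marrow, stood at 472 CPM in DKO and 768 in TWT (log2 ratio -0.70). Tfeb, also under the minimum with 22.2 CPM in DKO and 37.2 in TWT, had -0.72. Laptm5 had -0.52, where it had 0.04 in the whole marrow. The 12 held 99.8% of the DKO UMIs and 91.1% of the TWT UMIs, the unassigned cells alone 15.9% in DKO and 10.5% in TWT.

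**Figure D2:**
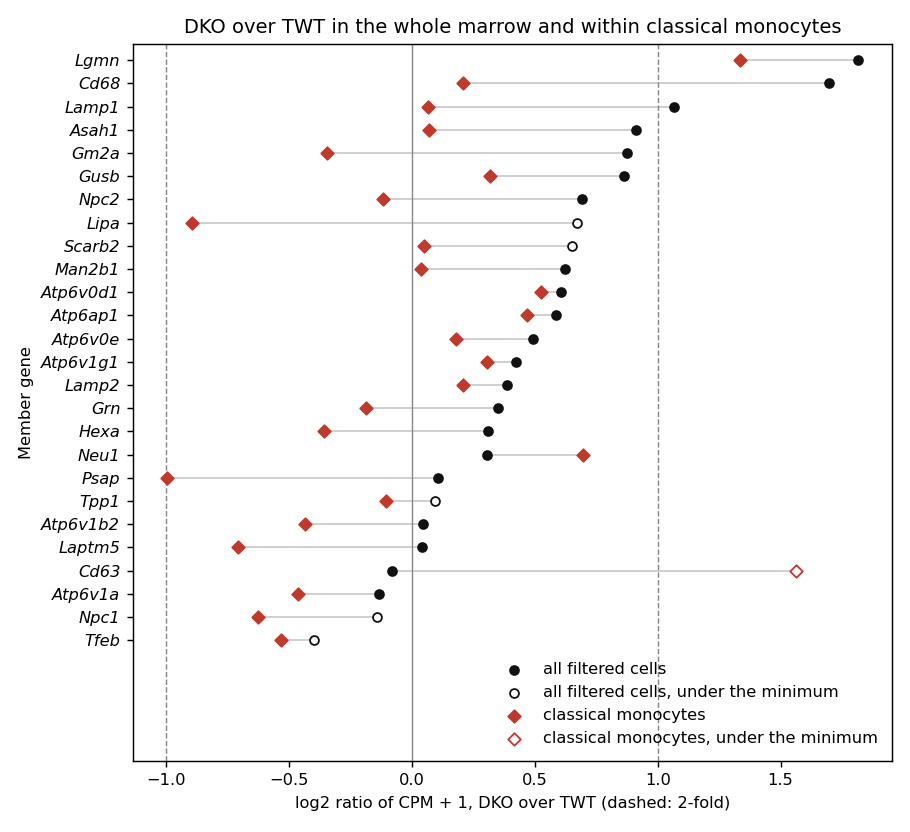
Log2 ratio of CPM + 1, DKO over TWT (x axis), for the 26 members measured in at least one of the 2 sets of cells (y axis), in all filtered cells (circles) and within classical monocytes (diamonds), with open symbols for values under the minimum. Nearly all circles lay to the right of 0, while the diamonds lay on both sides, from Psap at -0.995 to Lgmn at 1.34 among filled ones.

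Within classical monocytes (1398 DKO, 547 TKO, 496 IL-6 KO and 513 TWT cells) the members' sum was lower in DKO. It was 8741 CPM in DKO cells, 10949 in TKO cells, 10810.2 in IL-6 KO cells and 10836 in TWT cells, a DKO to TWT ratio of 0.807 (0.798 to 0.815). Most of this lay in Psap: without it the sums were 6927 CPM in DKO, 7411 in TKO, 7225 in IL-6 KO and 7217 in TWT, a ratio of 0.960 (0.947 to 0.972). Of 25 members measured, 1 was called higher (Lgmn) and 0 lower, where 3.52% of all genes measured were called higher and 11.2% lower. The counting interval of the ratio lay above 1 for 10 members and below 1 for 11. Their median log2 ratio was 0.04, beside -0.19 over all genes. Against TKO the count was again 1 higher of 24 (Lgmn) and 0 lower, beside 4.0% and 10.2% of all genes.

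**Figure D3:**
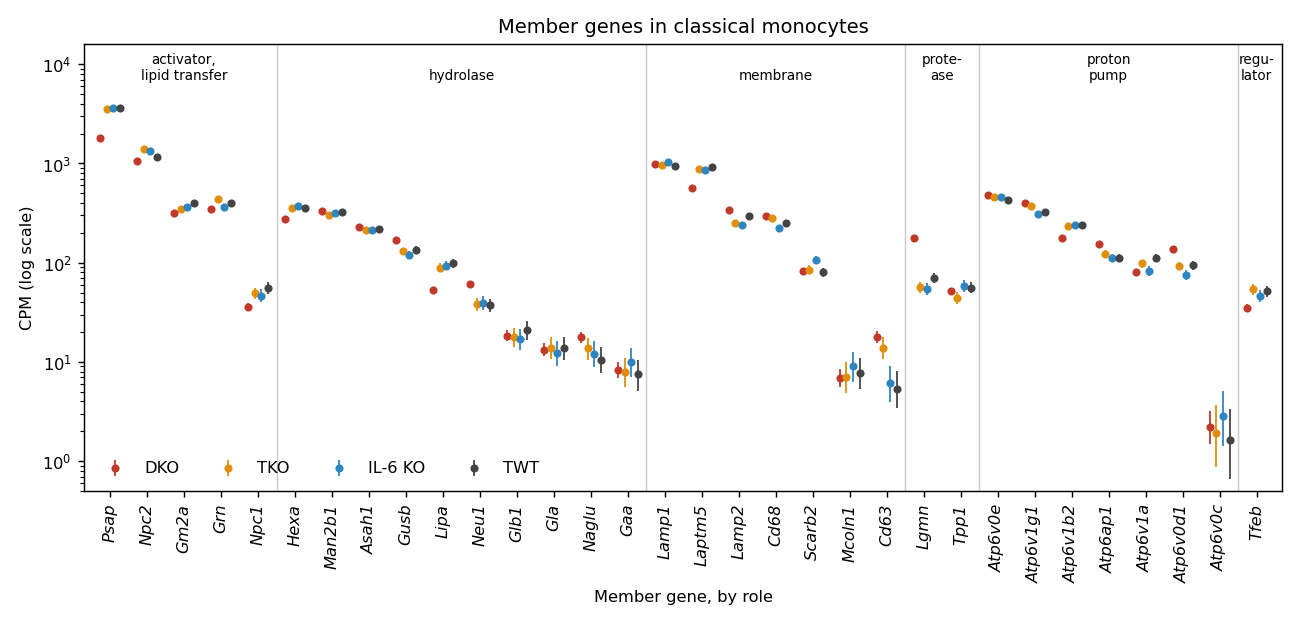
CPM of the 32 member genes in classical monocytes of each library (y axis, log scale), grouped by role and ordered by the TWT value, with exact 95% Poisson intervals as bars. The DKO points of Psap, Laptm5, Lipa and Atp6v1b2 stood below and those of Lgmn, Neu1 and Atp6v0d1 above the points of the 3 other libraries, which lay close together.

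Of the proteases, Lgmn had 179 CPM in DKO, 56.5 in TKO, 54.8 in IL-6 KO and 70.2 in TWT. The ratio to TWT was 2.55 (2.26 to 2.88) and that to TKO 3.16 (2.79 to 3.61). Thinned to 2000 UMIs per cell, a UMI of Lgmn was found in 25.6% of DKO cells, 10.5% of TKO cells, 14.2% of IL-6 KO cells and 14.2% of TWT cells. In T cells, where its level was low, the shares were 1.45% of DKO cells, 0% of TKO cells, 0.80% of IL-6 KO cells and 0.342% of TWT cells. The DKO share came from 12 of 825 cells and the TWT share from 1 of 292, and their intervals overlapped. The 0% of TKO was 0 of 190 cells, which allows a share of up to 1.58% at a floor of 3 counts and 1.92% by the exact interval. The median depth was 9541 UMIs in DKO and 7810.0 in TWT classical monocytes, and 3649 and 3808 in their T cells. Unthinned, Lgmn was found in 65.2% of DKO and 40.5% of TWT classical monocytes. Tpp1, tripeptidyl peptidase, showed little difference, with 51.9 CPM in DKO, 43.8 in TKO, 58.1 in IL-6 KO and 55.9 in TWT, and its interval included 1.

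Of the activators and lipid transfer proteins, Psap (ENSMUSG00000004207, GRCm38 chromosome 10, 60277627 to 60302597, plus strand) encodes the precursor of the saposins, which help sphingolipid hydrolases reach their substrates. It had 1815 CPM in DKO, 3538 in TKO, 3585 in IL-6 KO and 3619 in TWT. The 3 other libraries lay within a narrow range and DKO far below it, yet the log2 ratio to TWT of -0.995 remained just outside the rule. Thinned to 2000 UMIs, Psap was found in 95.5% of DKO cells, 99.8% of TKO cells, 99.4% of IL-6 KO cells and 99.6% of TWT cells. Npc2, the soluble cholesterol carrier, had 1062 CPM in DKO, 1398 in TKO, 1339 in IL-6 KO and 1153 in TWT, and Gm2a had 317 CPM in DKO, 344 in TKO, 367 in IL-6 KO and 403 in TWT. Npc1, the membrane cholesterol transporter, was at 35.7 CPM in DKO, 49.0 in TKO, 46.5 in IL-6 KO and 55.7 in TWT, a ratio to TWT of 0.642 (0.548 to 0.753). Grn, the progranulin precursor, had 351 CPM in DKO, 442 in TKO, 365 in IL-6 KO and 399.8 in TWT. All 5 genes of this role had ratios to TWT below 1 with intervals that did not reach 1.

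Among the membrane proteins, Lamp1, called higher in the whole marrow, was nearly level within classical monocytes, with 979 CPM in DKO, 964 in TKO, 1033 in IL-6 KO and 937 in TWT. Lamp2 had 342 CPM in DKO, 251 in TKO, 242 in IL-6 KO and 296 in TWT and Cd68 292 CPM in DKO, 281 in TKO, 223 in IL-6 KO and 253 in TWT. Both were higher in DKO than in TWT by less than 1.2-fold. Laptm5, a membrane protein of hematopoietic cells that sorts receptors to lysosomes, was the member of this role that differed most among those measured, with 562 CPM in DKO, 870.1 in TKO, 851 in IL-6 KO and 919 in TWT and a ratio to TWT of 0.611 (0.588 to 0.635). Scarb2, the transport receptor of glucocerebrosidase, had 83.1 CPM in DKO, 85.1 in TKO, 107 in IL-6 KO and 80.2 in TWT, and Mcoln1, a calcium channel of the lysosomal membrane, had 6.97 CPM in DKO, 7.06 in TKO, 9.0 in IL-6 KO and 7.72 in TWT, both with intervals that included 1. Cd63 stayed below the minimum at 17.9 CPM in DKO, 13.9 in TKO, 6.17 in IL-6 KO and 5.38 in TWT. Its ratio of 3.32 (2.16 to 5.34) stood beside a sum of the 6 immature neutrophil markers of 1773 CPM in DKO and 680.5 in TWT classical monocytes, whose part in the result was not tested.

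The hydrolases diverged. Lipa, lysosomal acid lipase, was lower in DKO, with 52.5 CPM in DKO, 89.2 in TKO, 92.8 in IL-6 KO and 98.5 in TWT and a ratio to TWT of 0.533 (0.472 to 0.603). Neu1, a sialidase, was higher, with 60.8 CPM in DKO, 38.1 in TKO, 39.1 in IL-6 KO and 37.2 in TWT and a ratio of 1.64 (1.38 to 1.95). Hexa, the alpha subunit of beta-hexosaminidase, had 275 CPM in DKO, 352 in TKO, 369 in IL-6 KO and 353 in TWT, and Gusb, beta-glucuronidase, 168 CPM in DKO, 129.8 in TKO, 120.1 in IL-6 KO and 135 in TWT, on opposite sides of the other libraries. Man2b1 and Asah1, an alpha-mannosidase and acid ceramidase, had ratios of 1.03 (0.965 to 1.09) and 1.05 (0.976 to 1.13), both intervals including 1. Gla, Glb1, Gaa and Naglu were under the minimum, between 7.49 and 20.8 CPM in TWT. Naglu, an alpha-N-acetylglucosaminidase, had 17.6 CPM in DKO, 13.7 in TKO, 12.1 in IL-6 KO and 10.5 in TWT, and its interval of 1.21 to 2.36 lay above 1, whereas those of Gla, Glb1 and Gaa included 1. The sum of all 10 hydrolases was 1177 CPM in DKO, 1175 in TKO, 1201 in IL-6 KO and 1220.1 in TWT.

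The proton pump genes also split. The head subunits Atp6v1a, the catalytic A subunit, and Atp6v1b2, a B subunit, were lower in DKO: Atp6v1a had 80.1 CPM in DKO, 98.2 in TKO, 83.1 in IL-6 KO and 111 in TWT, and Atp6v1b2 had 177 CPM in DKO, 235 in TKO, 239.6 in IL-6 KO and 239.8 in TWT. Atp6v0d1 and Atp6v0e of the V0 part and Atp6v1g1 of the stalk were higher. Atp6v0d1 had 136 CPM in DKO, 92.2 in TKO, 75.9 in IL-6 KO and 94.3 in TWT, a ratio to TWT of 1.44 (1.29 to 1.61). Atp6v0e had 483 CPM in DKO, 455 in TKO, 455 in IL-6 KO and 427 in TWT, and Atp6v1g1 401 CPM in DKO, 371 in TKO, 309 in IL-6 KO and 324 in TWT. Atp6ap1, an accessory protein, had 155 CPM in DKO, 124 in TKO, 112 in IL-6 KO and 112 in TWT. None of these reached 2-fold. Tfeb was lower in DKO, with 35.3 CPM in DKO, 53.9 in TKO, 46.3 in IL-6 KO and 51.5 in TWT and a ratio of 0.685 (0.583 to 0.808).

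The markers of the gate itself differed between the libraries. The 6 classical monocyte markers summed to 4358 CPM in DKO cells, 6489 in TKO cells, 6094 in IL-6 KO cells and 6279 in TWT cells, with 1 of 6, F13a1, more than 2-fold lower in DKO (589 CPM against 1258 in TWT). The 10 macrophage markers summed to 222 CPM in DKO cells, 134 in TKO cells, 124 in IL-6 KO cells and 135 in TWT cells, with 4 of them 2-fold or more higher in DKO and 1 lower. C1qb, a subunit of complement C1q, had 49.7 CPM in DKO and 3.74 in TWT classical monocytes. The defining markers Cd5l and Vcam1 were below 1 CPM in both, and Mrc1 had 0.519 CPM in DKO and 15.4 in TWT. The part of these shifts in the members' values was not tested. With gates that asked for 1 more marker, the sum ratio was 0.8005 and Lgmn was still the only member called.

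The sum was also taken cell by cell. Of 2000 UMIs per classical monocyte, the median cell gave 17 to the members in DKO, 23 in TKO, 22 in IL-6 KO and 22 in TWT. The middle 50% of cells ran from 14 to 21 in DKO and from 18 to 26 in TWT, so the distributions overlapped widely. In mature neutrophils the medians were 8 in DKO and 8 in TWT, and in T cells 4 in both. Cells of 1 library are not replicates, and these values describe the libraries only.

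In mature neutrophils (562 DKO, 1743 TKO, 1988 IL-6 KO and 1606 TWT cells) the sum was 3937 CPM in DKO cells, 4526 in TKO cells, 4143 in IL-6 KO cells and 4239.6 in TWT cells. Of 20 members measured in DKO against TWT 0 were called, beside 5.20% of all genes called higher and 7.83% lower. Tfeb and Psap were the nearest: Tfeb had 33.7 CPM in DKO, 70.4 in TKO, 58.5 in IL-6 KO and 65.9 in TWT, and Psap had 349.5 CPM in DKO, 707 in TKO, 616 in IL-6 KO and 637 in TWT. Against TKO both passed the rule and were called lower, 2 of 20, with 0 higher, beside 9.47% and 4.07% of all genes. These calls depended on the gates: against TKO, stricter gates called Tfeb lower and Gm2a higher but not Psap, and gates on cells thinned to 2000 UMIs called Lamp1, Cd68 and Gm2a higher and 0 members lower. The stricter setting also raised the immature cutoff from 3% to 5% of UMIs, which let cells between these values into the mature gate. That gate then held 798 DKO, 1528 TKO and 1542 TWT cells. Cd68 had 58.9 CPM in DKO, 45.5 in TKO, 30.8 in IL-6 KO and 33.5 in TWT, and Lamp1 had 118 CPM in DKO, 80.8 in TKO, 89.7 in IL-6 KO and 82 in TWT. The DKO to TWT sum ratio of 0.929 (0.906 to 0.952) did not hold its direction: with gates set on cells thinned to 2000 UMIs it was 1.12, and Lamp1, Npc2, Cd68 and Gm2a were then called higher. Beside this, the 6 immature neutrophil markers summed to 16144 CPM in DKO and 9874 in TWT mature neutrophils.

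Immature neutrophils (2821 DKO and 2040 TWT cells) gave sums of 3035 CPM in DKO, 3027 in TKO, 2795 in IL-6 KO and 2909.8 in TWT. Of 16 members measured 0 were called, beside 2.36% of all genes higher and 3.57% lower. The log2 ratios farthest from 0 were those of Atp6v1g1, with 472 CPM in DKO, 302 in TKO, 276 in IL-6 KO and 284 in TWT, and of Laptm5, with 185 CPM in DKO, 282 in TKO, 283 in IL-6 KO and 306 in TWT. Cd63 had 657 CPM in DKO, 613 in TKO, 507 in IL-6 KO and 575 in TWT and Lamp1 194 CPM in DKO, 149.6 in TKO, 126 in IL-6 KO and 144 in TWT.

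In B cells (461 DKO and 857 TWT cells) 1 of 15 members, Tfeb, was called lower in DKO and 0 higher, beside 15.7% and 2.44% of all genes. Tfeb had 31.6 CPM in DKO, 82.7 in TKO, 78.3 in IL-6 KO and 79.6 in TWT, a ratio to TWT of 0.397 (0.279 to 0.553). Against TKO, Tfeb and Grn were called lower, 2 of 16, and 0 higher, beside 15.3% and 2.96%. Grn had 30.8 CPM in DKO, 88.3 in TKO, 61.9 in IL-6 KO and 46.0 in TWT. T cells (905 DKO and 324 TWT cells) had 9 members measured and 0 called, beside 3.64% higher and 8.01% lower. Npc2 had 367 CPM in DKO, 265 in TKO, 259 in IL-6 KO and 224 in TWT there, and Psap 155 CPM in DKO, 169 in TKO, 191 in IL-6 KO and 213 in TWT. Beside this, the 6 classical monocyte markers summed to 1609 CPM in DKO, 1393 in TKO, 892 in IL-6 KO and 937 in TWT T cells, with 2 of the 6 markers 2-fold or more above TWT in DKO. The 6 immature neutrophil markers summed to 1253 CPM in DKO and 599 in TWT T cells, and the part of either list in the members' values was not tested.

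**Figure D4:**
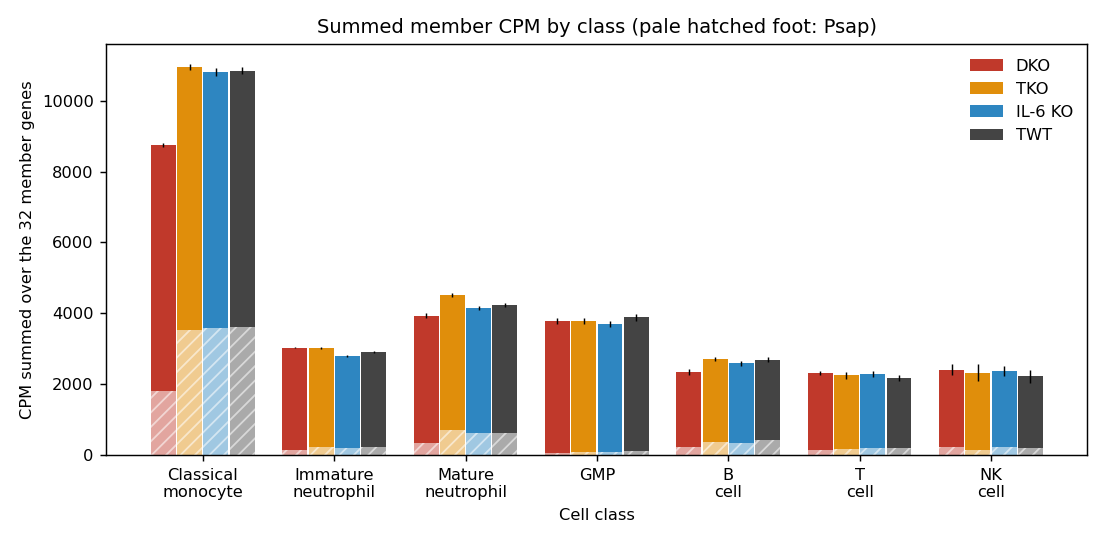
CPM summed over the 32 member genes (y axis) in 7 cell classes of each library, with exact 95% Poisson intervals as bars and the part from Psap as the pale hatched foot of each bar. In classical monocytes the DKO bar stood at 8741 and the others between 10810.2 and 10949, and in the other classes the bars of the 4 libraries differed less.

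Macrophages and non-classical monocytes were common in DKO and rare elsewhere, so they are given as values with no calls. The macrophage gate held 451 DKO, 18 TKO, 16 IL-6 KO and 29 TWT cells. Psap had 2180.0 CPM in DKO cells, 8474 in TKO cells, 10506 in IL-6 KO cells and 7044 in TWT cells, from 6886 UMIs in DKO and 759 in TWT. Lgmn had 449 CPM in DKO, 1141 in TKO, 836 in IL-6 KO and 789 in TWT there, the opposite direction to classical monocytes, and Npc2 had 646 CPM in DKO, 1430.4 in TKO, 1343 in IL-6 KO and 1262 in TWT. Median depth in this gate was 6761 UMIs per cell in DKO and 2035 in TWT. C1qa, C1qb and C1qc were among the genes raised most over the other cells of each library. Beside them stood Mrc1, Cd5l and Fcna in TWT and TKO, but Cxcl13, Pmp22 and Cadm1 in DKO. Whether the gate holds the same kind of cell in each library was not tested. Cells that passed the classical and the non-classical gate together (603 DKO, 57 TKO, 34 IL-6 KO and 20 TWT cells) had 1993 CPM in DKO, 4093 in TKO, 3448 in IL-6 KO and 4563 in TWT for Psap and 153 CPM in DKO, 166 in TKO, 107 in IL-6 KO and 160.1 in TWT for Lgmn. The non-classical monocyte gate held 825 DKO, 63 TKO, 36 IL-6 KO and 23 TWT cells. Psap had 1485 CPM in DKO, 2799 in TKO, 2628 in IL-6 KO and 2214 in TWT there. Laptm5 had 1199.7 CPM in DKO, 1697 in TKO, 1855 in IL-6 KO and 1888 in TWT. Lamp1 had 739 CPM in DKO, 699.8 in TKO, 714 in IL-6 KO and 709.7 in TWT. Thinned as above, Lgmn was found in 20.2% of DKO, 22.8% of TKO, 41.2% of IL-6 KO and 36.8% of TWT cells. The TWT share came from 7 of 19 cells, and its interval overlapped that of DKO. The higher DKO share of classical monocytes was not seen in this gate.

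Several members differed from TWT in one direction over most classes. Among the 11 classes with at least 10 cells in both DKO and TWT, the ratio of Laptm5 was below 1 in 11, with the counting interval below 1 in 9, and that of Psap was below 1 in 10, with the interval below 1 in 9. Atp6v1b2 had intervals below 1 in 7 classes and above 1 in 0, and Atp6v1a in 6 and 0. For Tfeb and Tpp1 the interval lay below 1 in 5 classes each. In the other direction, Atp6v1g1 and Atp6v0e had intervals above 1 in 7 classes each and Atp6v0d1 in 6, with none below 1. Cd63 had intervals above 1 in 7 classes, and Lamp1 in 5. All these counts also took in classes where a gene lay under the 50 CPM minimum, as Cd63 did in classical monocytes. The classes come from the same 2 libraries and share their handling and free RNA, so these counts describe the libraries and are not repeated evidence.

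**Figure D5:**
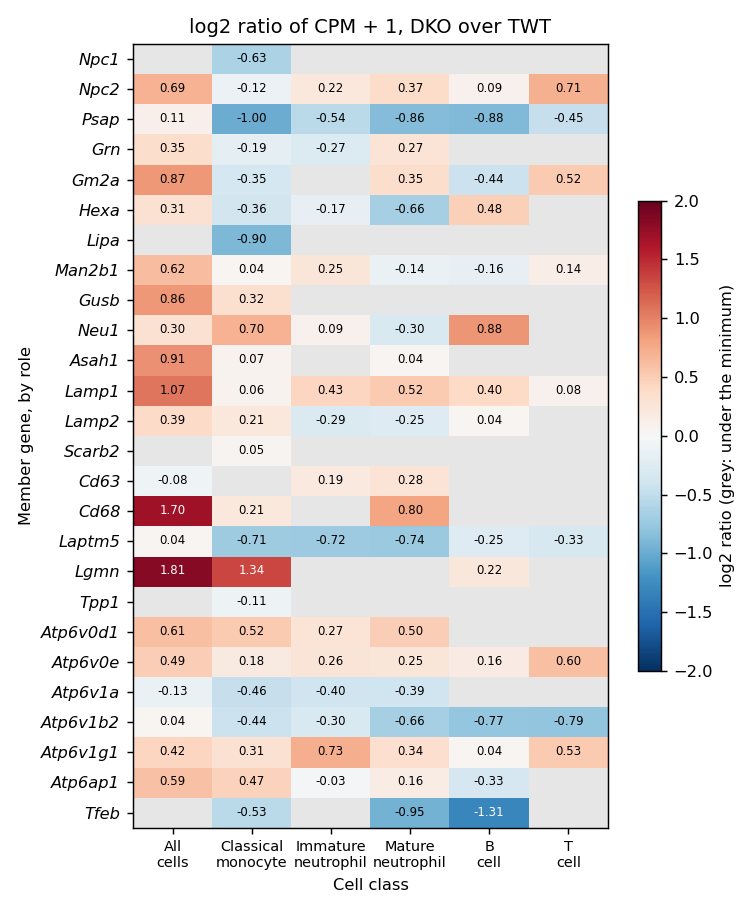
Log2 ratio of CPM + 1, DKO over TWT, for the 26 members measured in at least one column (rows, by role) in all filtered cells and 5 classes (columns), red for higher and blue for lower in DKO, grey for values under the minimum. Psap and Laptm5 were blue in each of the 5 classes, whereas Lgmn reached 1.34 in classical monocytes and 0.22 in B cells.

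A list of 57 other lysosomal genes, also chosen with earlier results known, was set beside the members. In classical monocytes 19 of them were measured in DKO against TWT and 0 were called in either direction, beside 3.52% of all genes called higher and 11.2% lower, with a median log2 ratio of 0.19. Slc11a1, a metal ion transporter of phagosomes and lysosomes, was just outside 2-fold on the CPM + 1 scale, with 65.1 CPM in DKO, 28.2 in TKO, 33.7 in IL-6 KO and 32.3 in TWT. Fuca1, a fucosidase, had 185 CPM in DKO, 131 in TKO, 100.3 in IL-6 KO and 123 in TWT, and Tmem192 had 62.3 CPM in DKO, 53.5 in TKO, 40.4 in IL-6 KO and 43.0 in TWT. The DKO value was the highest of the 4 libraries for each of these 3 genes. In all filtered cells 17 were measured, 4 called higher and 1 lower, beside 6.39% and 5.08% of all genes. Acp5, a tartrate-resistant acid phosphatase, had 106 CPM in DKO, 20.5 in TKO, 18.4 in IL-6 KO and 19.9 in TWT, and Slc11a1 had 59.1 CPM in DKO, 16.0 in TKO, 16.1 in IL-6 KO and 17.4 in TWT. Laptm4a was also among those called higher, and Cd164 was called lower, with 32.4 CPM in DKO, 65.6 in TKO, 72.5 in IL-6 KO and 75.6 in TWT.

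Within classical monocytes the members of TKO and IL-6 KO lay closer to TWT than those of DKO did. Of 24 members measured in TKO against TWT 0 were called, with 0.449% of all genes called in either direction, and in IL-6 KO against TWT 0 of 24, with 0.383%. The members' log2 ratios ran from -0.34 to 0.28 in TKO and from -0.41 to 0.41 in IL-6 KO against TWT, a narrower span than that of DKO, -0.995 to 1.34. The summed ratios to TWT were 1.01 (0.998 to 1.02) in TKO and 0.998 (0.985 to 1.01) in IL-6 KO.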

How the data were processed

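Droplet single-cell RNA sequencing (10x Genomics, 3′ chemistry) was made by the authors from bone marrow of DKO, TKO, IL-6 KO and TWT mice, with 1 library per genotype. The deposited counts are UMI counts per gene and barcode. Per the labels and the submitters' processing notes, the authors used Cell Ranger 3.0.2 with mm10 for alignment and counting, and Seurat 4 downstream. Reads that match several genes are not counted by this counter, which lowers genes with near-identical copies. The 4 matrices hold raw counts, and depth differs between libraries, so values were scaled to CPM over all UMIs of the cells summed.

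Barcodes with 500 to 4000 detected genes and at most 15% mt- UMIs were kept, and cells were assigned to classes by marker gates. UMIs were summed per class. A gene was measured where one of the libraries compared reached 50 CPM and the pair held 30 UMIs, and called when CPM + 1 differed 2-fold. Intervals are exact (Poisson for sums, conditional binomial for ratios, Clopper-Pearson for shares, 95%) and cover counting error only. With 1 library per genotype no test was made. Values in every library were set to be given for members called in DKO against TWT in classical monocytes, mature neutrophils or all cells, for those just inside and outside 2-fold, and for the members with the highest CPM of a role. Of the other lysosomal genes, the 4 with the largest absolute log2 ratio in classical monocytes were to be named, of which 1 is not reported here. Other genes with values were added after their values were seen. The members, the 57 other lysosomal genes and the marker lists were chosen with earlier results of these data known.

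Doublets were kept. Scrublet marked 1 of 10866 barcodes in DKO, so it had not worked there, and 2.17% to 2.46% in the 3 other libraries. The call rule was tested on simulated counts: in the simulation of DKO against TWT classical monocytes (3065 genes), 200 of 200 genes changed 3-fold were called and 0 of 2865 unchanged ones. Both simulated libraries were drawn from the TWT means with counting error only, and the changed genes lay above the CPM minimum. The result therefore gives no rate of false calls between animals or libraries. Promoter windows of 150 bases were taken from RefSeq (GRCm38.p6). Alternatives covered the pseudocount, filters, scaling, gates, doublets, the fold rule and class shares. Python 3.11.15, numpy 2.4.6, scipy 1.17.1, pandas 2.3.3, matplotlib 3.10.9 and scanpy 1.11.5 were used.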

Additional observations from a re-analysis of the deposited data

Results flagged for a closer look

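Some members had DKO to TWT ratios on opposite sides of 1 in different classes, each with a counting interval that did not include 1. Npc2 had a ratio of 1.64 (1.44 to 1.87) in T cells and 1.70 (1.18 to 2.49) in NK cells, but 0.511 (0.430 to 0.613) in macrophages. Lgmn had 2.55 (2.26 to 2.88) in classical monocytes and 0.569 (0.457 to 0.716) in macrophages, a class with 451 DKO and 29 TWT cells. Atp6ap1 had 1.90 (1.08 to 3.69) in cells past both monocyte gates and 0.255 (0.0302 to 0.960) in erythroid cells, of which there were 10 in DKO and 91 in TWT. In the T cell gate the 6 classical monocyte markers summed to 1609 CPM in DKO and 937 in TWT, and their part in the Npc2 ratio was not tested. None of these differences between classes was tested, since each genotype has 1 library.

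Barcodes with more than 4000 detected genes were left out of every comparison. Of their UMIs, the members took 0.560% in DKO and 0.317% in TWT, over 275 DKO and 646 TWT barcodes. Whether such barcodes hold more than 1 cell was not tested.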

How the results depend on the processing

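The log2 ratios of 15 named members in classical monocytes, each under 7 other settings, kept their sign in 105 of 105 values. Of these, 98 lay within the interval of the reported value. The settings reuse the same 2 libraries and largely the same cells, so the values are not independent of each other. The alternatives for DKO against TKO, those without Psap, those without the highest 5% of Scrublet scores and some for the whole marrow sum were chosen after seeing the data. The following values differed from those reported, and the cause was not tested. A 1.5-fold rule against TWT called 2 of 25 members higher and 4 lower in classical monocytes, beside 8.1% and 28.0% of all genes. It called 1 of 20 higher and 5 lower in mature neutrophils, beside 13.7% and 24%. In all cells it called 10 of 21 higher and 0 lower, beside 17.9% and 14.2%. Against TKO it called 2 of 24 higher and 4 lower in classical monocytes, beside 7.4% and 25.1%. In mature neutrophils these were 1 and 5 of 20, beside 10.8% and 26.9%, and in all cells 6 and 0 of 21, beside 12.3% and 14.9%. Without a CPM minimum 2 members (Lgmn and Cd63) were called higher in classical monocytes against TWT, beside 3.93% of all genes. With a pseudocount of 10 CPM 0 were called in mature neutrophils against TKO. Without genes above 1% of the UMIs, Tfeb was the 1 member called lower in mature neutrophils against TWT, beside 10.2% of all genes. The sum ratio there was 0.887, and in all cells it was 1.20 against TWT and 1.16 against TKO. With a floor of 200 genes as the sole filter the sum ratios against TWT were 0.826 in classical monocytes, 0.952 in mature neutrophils and 1.44 in all cells, those against TKO were 0.822 in classical monocytes, 0.893 in mature neutrophils and 1.35 in all cells, and 1 member was called in mature neutrophils against TKO. Mean CPM per cell gave 1 call and a ratio of 0.885 in mature neutrophils against TWT, and 0.782 in classical monocytes and 0.832 in mature neutrophils against TKO. Stricter gates gave 1 call and a ratio of 0.980 in mature neutrophils against TWT, and 0.927 against TKO. For mature neutrophils this setting was wider in DKO, with 798 cells where the main gate held 562, because the immature cutoff rose too. Without Psap the sum ratios were 0.960 in classical monocytes, 0.996 in mature neutrophils and 1.39 in all cells against TWT, and 0.935, 0.940 and 1.31 in these cells against TKO. Without the highest 5% of Scrublet scores the ratio in all cells was 1.34 against TWT and 1.28 against TKO.

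The sums changed direction in 2 settings. Gates on cells thinned to 2000 UMIs gave 1.12 and 4 calls in mature neutrophils against TWT, and 1.03 against TKO. Class shares of TWT gave 0.983 in all cells against TWT and 0.933 against TKO, with 0 members called in either. Lgmn, with 40.8 CPM in DKO, 19.0 in TKO and 20.6 in TWT on this scale, was under the 50 CPM minimum and could not be called. No paired analysis was possible because each genotype has 1 library. The spread between animals was not measured. Classes with 16 to 36 cells outside DKO and members under 50 CPM are known only within wide counting intervals.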

Other observations

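Other classes not described so far had member patterns of their own, and all values here are descriptions of 1 library each. Granulocyte-monocyte progenitors (111 DKO, 122 TKO, 115 IL-6 KO and 96 TWT cells) had 1299 CPM in DKO, 1221 in TKO, 1143 in IL-6 KO and 1312 in TWT for Cd63, the tetraspanin of primary granules. Laptm5 had 106 CPM in DKO, 178 in TKO, 189 in IL-6 KO and 206 in TWT in these cells, and Lamp1 had 350.0 CPM in DKO, 231 in TKO, 191 in IL-6 KO and 192 in TWT. The DKO value of Laptm5 stood below the 3 others, and that of Lamp1 above them. Psap had the lowest log2 ratio to TWT of the 16 members measured there, -1.01, beside a median of 0.07 over all genes. It was called lower, and 0 members were called higher. In NK cells (85 DKO and 68 TWT cells) 2 of 11 members measured were called higher than in TWT and 1 lower. The share of all genes called was not taken in either class, so these counts cannot be read as a result about the members.

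Plasmacytoid dendritic cells, which make type I interferon, were 5 cells in DKO and 115 in TKO, 116 in IL-6 KO and 118 in TWT, so they are given without DKO. Psap had 3959 CPM in TKO, 3549 in IL-6 KO and 4462 in TWT, Grn 1052 CPM in TKO, 923 in IL-6 KO and 885 in TWT and Npc1 222 CPM in TKO, 260.2 in IL-6 KO and 217 in TWT. Basophils and mast cells had 0 cells in the DKO gate and 70 in TKO, 75 in IL-6 KO and 66 in TWT. Their Cd63 was 2592 CPM in TKO, 2169 in IL-6 KO and 2539 in TWT, and Man2b1, a lysosomal alpha-mannosidase, was 653 CPM in TKO, 675 in IL-6 KO and 703 in TWT. Gm2a was uneven there, with 521 CPM in TKO, 182 in IL-6 KO and 264 in TWT.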
